A study of Harpegnathos saltator with 35 samples.

Results

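The genes described here are 50 genes of the ant Harpegnathos saltator that stood higher in neuronal cultures late after the insect steroid 20-hydroxyecdysone (20E) was added, and that were also high in cultures that had lived in 20E for days. They were chosen from 14001 genes by their levels, given as FPKM (fragments divided by gene length and by a factor for library size, as deposited). A member reached an FPKM of 1 in 3 or more libraries. Its log2(mean FPKM + 1) was at least 0.7 above the baseline of cultures kept in juvenile hormone III (JH3) when such cultures had received 20E for 24 h, and less than 0.4 above it after 6 h. Each 24 h library lay above every JH3 baseline library and above every JH3 library given 20E for 30 min. All 50 members meet the first of these by choice, and 9.42% of all 9873 genes with enough signal to test do. The baseline of cultures kept in 20E was at least 0.4 above the JH3 baseline, and 20E cultures given JH3 for 24 h were less than 0.3 above that 20E baseline. In all 51 genes met these conditions, 1 of which, Eip93F, belongs to 5 genes that were left out by name. The differences that chose the members are given below as descriptions, without a test.

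20E is the active moulting hormone of insects. It binds a receptor made of Ecr and usp, and in Drosophila the receptor first switches on early genes, many of them transcription factors such as E75, whose products then act on later genes. The late genes carry out much of the change in cell shape and function at metamorphosis, including the pruning and regrowth of neurites in the nervous system. Juvenile hormone modifies that response at many stages, and Kr-h1, a zinc finger factor, is the target gene through which much of its action runs. In adult ants both hormones circulate and differ between workers and reproductives.

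Polyadenylated RNA was sequenced by a strand-specific method from 35 primary cultures made from single-cell suspensions of central brains. The cells were kept for 5 days in medium with 2 µM 20E or 2 µM JH3, together with B27, insulin, transferrin, selenium and progesterone in every group, and with honeybee pupal extract for the first days. Fresh medium then brought the other hormone, also at 2 µM, for 30 min, 6 h or 24 h, and baseline cultures got DMSO, the solvent, for 30 min instead. JH3 cultures gave 4 baseline libraries and 5, 6 and 4 libraries after 30 min, 6 h and 24 h of 20E, and 20E cultures gave 5 baseline libraries and 3, 5 and 3 libraries after 30 min, 6 h and 24 h of JH3. Replicates are separate cultures, per the series' design text. The 6 h and 24 h groups had no solvent control of the same time, so in them time after the medium change and the added hormone cannot be told apart. The cultures are mixed: all 9 matched neuron markers were expressed in every library (nSyb at 52.3 to 174 FPKM), and the glial marker repo was also present at 6.21 to 50.02 FPKM.

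The libraries held 5938007 to 22650435 reads assigned to genes and were sequenced in 3 runs (here A, B and C). Run C alone holds the 20E cultures given JH3 for 24 h, and the JH3 baseline has runs A and B only, so between these groups run and treatment cannot be told apart from their own libraries. In 9 libraries the SD over genes of the log2 difference from the rest of their group was above 0.4. These were all 3 libraries of 20E cultures given JH3 for 30 min (0.43 to 0.52) and 6 others, namely JH3 baseline replicate 4, replicate 5 of 30 min and replicate 4 of 6 h of 20E, 20E baseline replicates 3 and 4, and replicate 5 of 6 h of JH3. Values without those 6 are given beside the results. The summed FPKM of the 9 neuron markers had a median of 751 (553 to 816) in the JH3 baseline, 548 (368 to 852) in the 20E baseline and 528, 569 and 721 after 30 min, 6 h and 24 h of JH3. By their means 6 of the 9 were lower in the 20E baseline than in the JH3 baseline, while brp, para and Syx1A were higher by 0.73, 0.40 and 0.19 on the log2 scale, and the markers' part in the levels below was not tested.

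As a list, the members hardly stood above the JH3 baseline after 30 min of 20E, stood a little above it at 6 h, and at 24 h were as high as in cultures that had spent 5 days in 20E. The median difference from the JH3 baseline, on the log2(mean FPKM + 1) scale, was 0.10 at 30 min (range -0.21 to 0.48), 0.31 at 6 h (-0.15 to 0.40) and 0.87 at 24 h (0.70 to 2.11), where the medians over all 9873 genes tested were 0.01, -0.01 and -0.02. In the 20E baseline the members' median was 0.86 (0.41 to 2.02), against 0.01 over all genes tested. Without the 6 libraries the members' medians became 0.19, 0.40, 0.97 and 0.96 in that order. These values fixed the membership and are not evidence of it. In bulk RNA a higher level per cell and more cells of a type cannot be told apart.

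The mean of log2(FPKM + 1) over the members shows the step library by library. It lay between 3.243 and 3.628 in the JH3 baseline, between 3.42 and 3.79 after 30 min of 20E, between 3.51 and 3.96 after 6 h and between 4.27 and 4.55 after 24 h. Every 24 h library was thus above every earlier library of JH3 cultures. The 20E baseline spanned 3.98 to 4.61, and its lowest library, replicate 3, was close to the highest of the 6 h libraries. Of the difference seen at 24 h, the median member had covered 30.9% at 6 h, with a range from -19.4% for LOC112589172, a long noncoding RNA, to 54.7% for Nop17l. The conditions set these times apart, so nothing is read from the 35 of 50 members in which all libraries at 24 h were above all at 6 h (4.17% of all genes tested; 37 members without the 6 libraries).

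**Figure D1:**
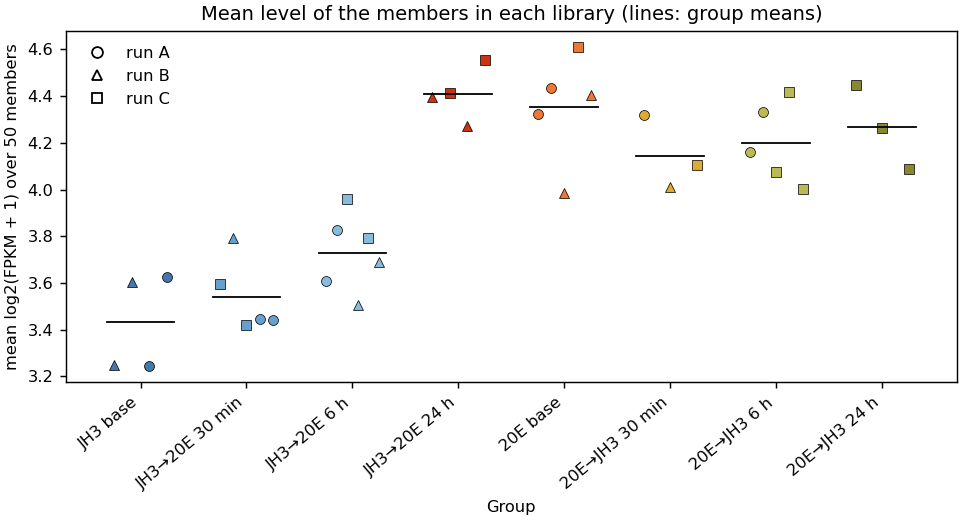
Mean log2(FPKM + 1) over the 50 members in each of the 35 libraries, by group, with lines at group means and symbols for the sequencing run. JH3 cultures stay at or below 3.96 up to 6 h of 20E and are at 4.27 or more at 24 h, and the 4 groups of 20E cultures lie between 3.98 and 4.61.

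**Figure D2:**
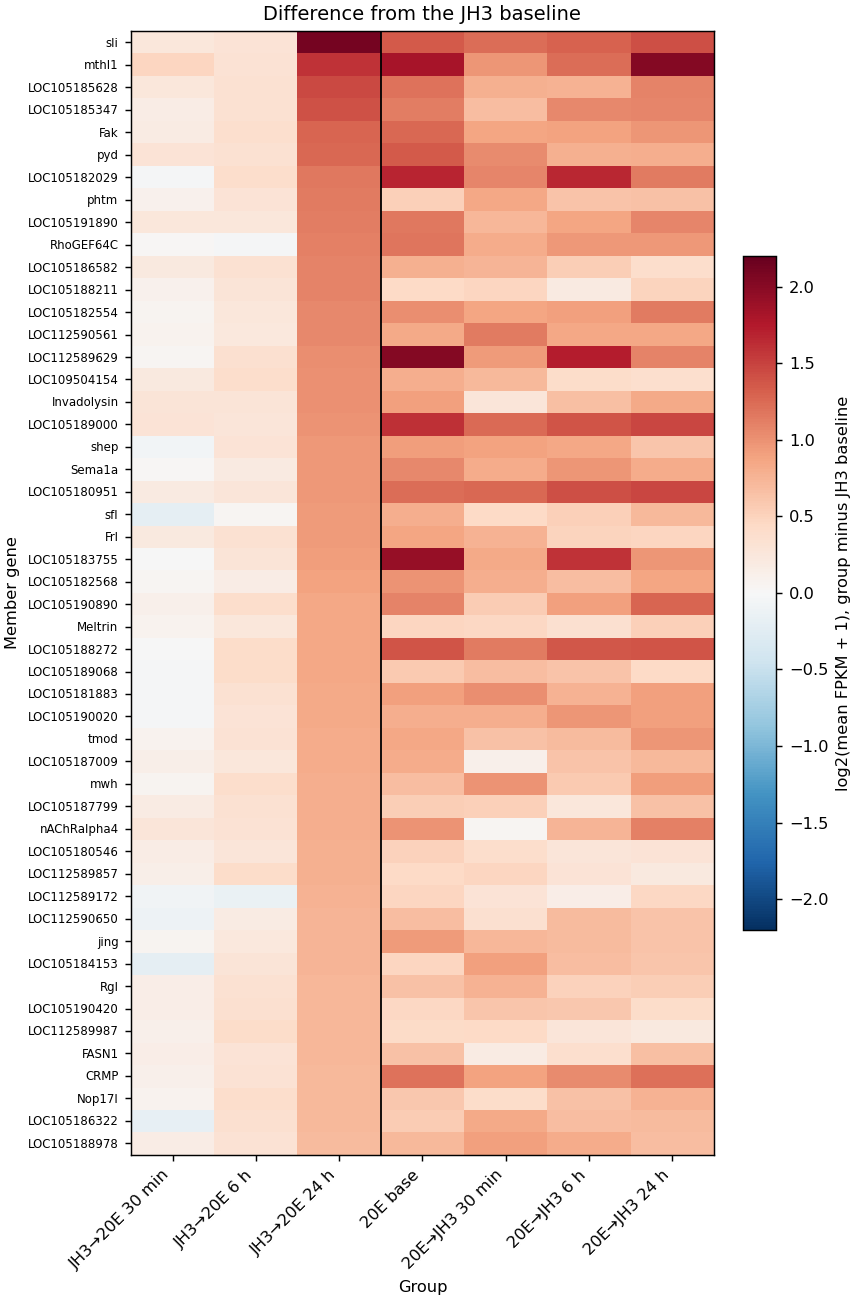
Difference of log2(mean FPKM + 1) from the JH3 baseline for each member (rows, ordered by the 24 h value) in the 7 other groups (columns), red for higher and blue for lower. In the third column, 24 h of 20E, and in all 4 groups of 20E cultures every member is above 0. Some cells of the 20E cultures are pale, such as nAChRalpha4 at 0.04 after 30 min of JH3. The columns for 30 min and 6 h of 20E are pale.

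The edges of the set were close. The member nearest the 24 h threshold was LOC105188978 at 0.70, and 47 genes failed on that condition alone, the nearest of them LOC109504120 at 0.69. At the 6 h condition LOC105188272 was the last inside and LOC105190159 the first outside, both at 0.40, with 70 genes failing there alone. For the 20E baseline LOC112589987 was inside at 0.41 and LOC105187725 outside at 0.34, with 22 failing there alone. After JH3 mwh was inside at 0.25 and Ten-m outside at 0.32, with 9 failing there alone. On the separation of libraries mthl1 was inside by 0.02 on the log2 scale and LOC105183511 just outside, with 33 genes failing there alone. Of 93 genes that met the conditions on JH3 cultures, 33 had a 20E baseline below the chronic threshold and 9 failed only the condition after JH3. Membership depended on single libraries: leaving out each in turn left 33 to 66 genes meeting the conditions, with 28 to 50 of the members among them. The fewest members were kept without JH3 baseline replicate 4, and without all 6 libraries 36 genes met the conditions, 24 of them members.

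Of the 50 members, 20 carry a gene symbol in RefSeq. As sorted here by textbook role, 5 of them are genes of axon guidance and cell adhesion. Their 24 h differences were 0.72 to 2.11 and their 20E baseline differences 1.06 to 1.35 on the log2 scale. Roles were not counted over all genes tested, so nothing is read from how many members share one. sli encodes Slit, the secreted ligand of Robo receptors that repels axons in Drosophila, and it had the largest 24 h difference of all members. It stood at 3.18, 6.65, 3.64 and 7.4 FPKM in the 4 JH3 baseline libraries and at 6.38, 8.3, 5.26, 4.67 and 7.55 after 30 min of 20E. After 6 h it was between 5.37 and 8.54 FPKM with a median of 6.25, and after 24 h it was at 27.1, 23.5, 22.8 and 30.1 FPKM. The earlier groups overlapped each other, and the lowest 24 h library was over 2 times the highest of any earlier one. The 20E baseline libraries, at 12.6, 15.8, 11.5, 21.3 and 13.1 FPKM, lay between both, so that the mean was 4.96 times the JH3 baseline mean at 24 h and 2.85 times in chronic 20E. With JH3 added to 20E cultures sli stood at 13.8, 15.2 and 11.5 FPKM at 30 min, 13.8, 14.8, 13.3, 16.8 and 12.4 at 6 h and 20.9, 14.1 and 11.6 at 24 h, all above every JH3 baseline library.

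Sema1a encodes a transmembrane semaphorin that acts as a guidance ligand and also as a receptor with plexins in Drosophila, and it was among the most abundant members. Its JH3 baseline libraries were at 60.9, 63.7, 48.3 and 61.3 FPKM, and those at 30 min of 20E at 58.3, 68.7, 52.2, 49 and 70.5. At 6 h it was between 62.4 and 73.5 FPKM with a median of 66.4, and at 24 h 112, 111, 109 and 125 FPKM. The 20E baseline was at 113, 95.6, 95.1, 192 and 119 FPKM, replicate 4 being far above the rest. After 30 min, 6 h and 24 h of JH3 the libraries spanned 92.8 to 122, 91.3 to 158 and 91.2 to 112 FPKM, so no library of 20E cultures came down to the range of JH3 cultures before 24 h of 20E. CRMP belongs to the collapsin response mediators, cytosolic proteins that take part in semaphorin signalling and microtubule assembly in vertebrates. It was at 17.3, 24.1, 17.1 and 24.2 FPKM in the JH3 baseline, between 20.7 and 28.5 FPKM with a median of 27.1 after 6 h, and 31.9, 36.4, 31.5 and 38.6 FPKM after 24 h. Its 20E baseline was higher still at 46.7, 50.1, 36.7, 51.4 and 59.4 FPKM, overlapping the 24 h group in 1 library only, and CRMP was at 49.4 ± 11.5 FPKM (SD, n = 3) after 24 h of JH3.

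Fak encodes focal adhesion kinase, which signals from integrin contacts. It stood at 12.2, 17.8, 13.3 and 22.3 FPKM in the JH3 baseline and at 42.9, 40.1, 33.6 and 48.8 after 24 h of 20E, with no overlap. Its 20E baseline of 40.2, 43.9, 22.3, 58.8 and 39.2 FPKM spread widely, replicate 3 being at the level of the highest JH3 baseline library. After JH3 it spanned 21.5 to 37.4 FPKM at 30 min, 17.3 to 45.9 at 6 h and 25.3 to 42.8 at 24 h, so that 1 library at 30 min and 2 at 6 h reached into the JH3 baseline range. pyd encodes the ZO-1 type scaffold of cell junctions. It was low, at 1.38, 3.2, 1.59 and 3.77 FPKM in the JH3 baseline, 6.93, 6.5, 5.35 and 10.7 after 24 h of 20E and 10.8, 8.88, 5.21, 9.89 and 4.61 in the 20E baseline. Its mean was 2.97 times the JH3 baseline mean at 24 h and 3.17 times in chronic 20E, and the 20E baseline was above the JH3 baseline in 5 of 5 libraries.

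**Figure D3:**
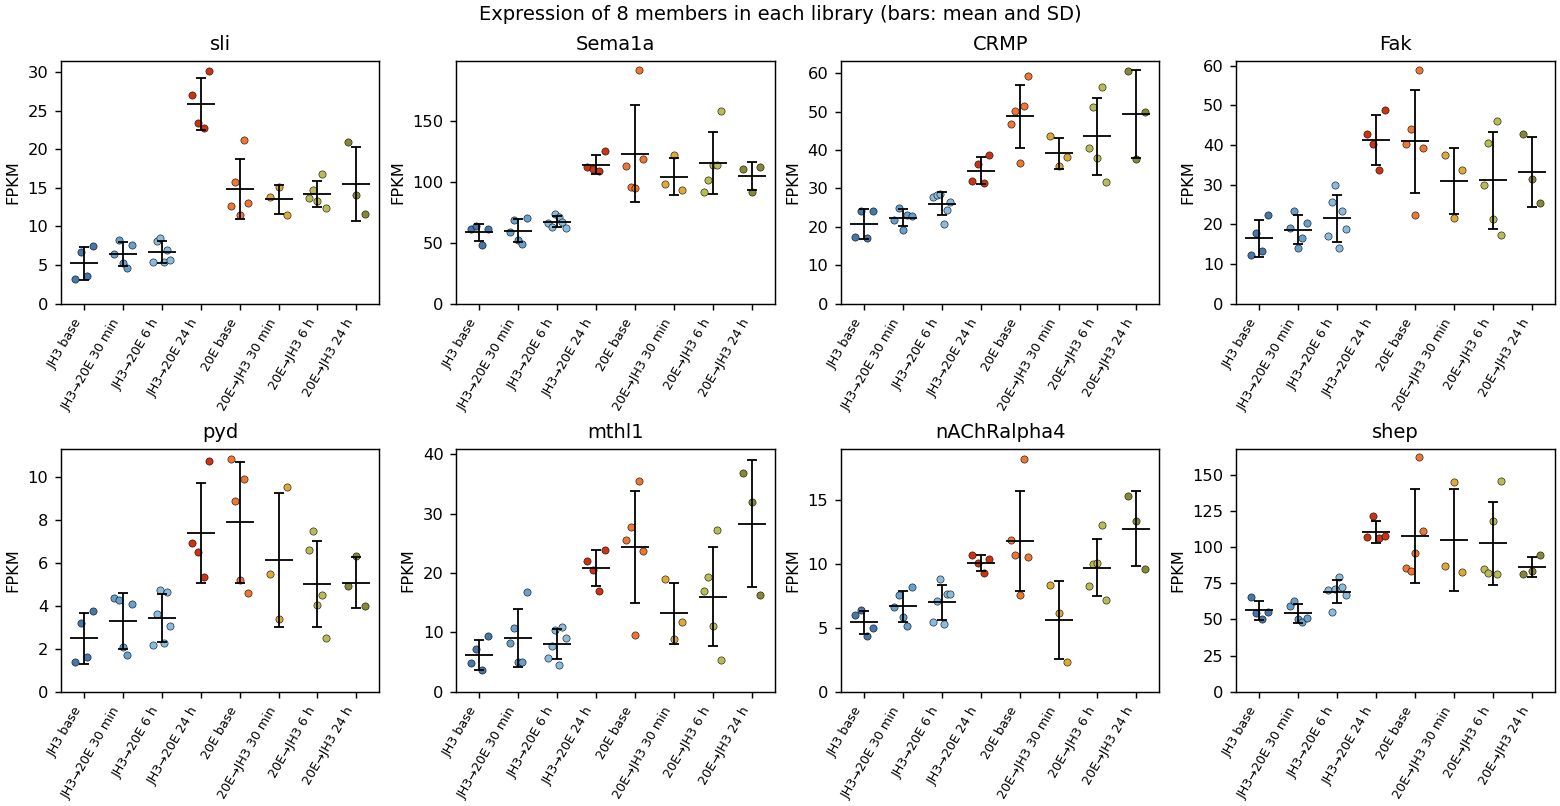
FPKM of 8 members in each library by group (points), with the mean and SD of each group (bars). In sli the 24 h libraries, at 22.8 to 30.1 FPKM, stand above all 20E baseline libraries, in CRMP the 20E baseline mean of 48.8 is above the 24 h mean of 34.6, and in Sema1a and shep both are about equal.

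Genes of the actin cytoskeleton and of small GTPases gave 5 members 4 of them with values given here, with 24 h differences of 0.73 to 0.94 and 20E baseline differences of 0.65 to 0.87 on the log2 scale. Frl, a formin that builds unbranched actin filaments, went from a mean of 10.8 ± 3.79 FPKM (SD, n = 4) in the JH3 baseline to 21.6 ± 2.96 (n = 4) at 24 h, with 20.5 ± 4.97 (n = 5) in the 20E baseline. tmod, which caps the slow-growing end of actin filaments, had means of 8.69 ± 2.93, 16 ± 1.95 and 16.5 ± 4.36 FPKM in the same order. Frl and tmod were thus about as high after a day as after days of 20E. Rgl, an exchange factor for Ral GTPases, was at 14 ± 3.6, 24 ± 3.37 and 22.5 ± 4.46 FPKM. mwh, which restricts actin bundles in Drosophila wing cells, was at 2.16 ± 0.741, 4.53 ± 1.14 and 4.06 ± 1.4 FPKM, and its mean after 24 h of JH3 was 5.01 ± 1.4 (n = 3), which as a share of its 20E baseline difference was the highest of any member at 137%.

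Regulators of transcription and RNA gave 3 members. shep encodes an RNA-binding protein that in Drosophila is needed for the remodelling of neurons at metamorphosis. It stood at 65.5, 54.2, 50.3 and 55.4 FPKM in the JH3 baseline and 59.2, 62.6, 50.05, 48 and 51.1 after 30 min of 20E. At 6 h it was between 55.4 and 79.1 FPKM with a median of 71, and at 24 h 107, 122, 106 and 108 FPKM, so its 24 h libraries were high and close together. In the 20E baseline it was at 85.9, 83.8, 95.8, 162 and 111 FPKM, and after 24 h of JH3 at 81.4, 83.7 and 94.4, all above every JH3 library before 24 h of 20E. jing, a zinc finger factor of the central midline in Drosophila, was at 14.3 ± 3.93 FPKM (SD, n = 4) in the JH3 baseline, 24.6 ± 2.36 (n = 4) at 24 h and 28.2 ± 8.2 (n = 5) in the 20E baseline. Nop17l, named for a factor in the assembly of small nucleolar ribonucleoproteins, was at 11.2, 13.3, 12.6 and 14.5 FPKM in the JH3 baseline, between 15.4 and 19 FPKM with a median of 17.1 at 6 h and 21.9, 19.7, 20.9 and 24.6 FPKM at 24 h. It had thus the largest share of its difference at 6 h, and its libraries in every group of 20E cultures except 1 at 30 min of JH3 were above the JH3 baseline.

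Enzymes gave 5 members, with 24 h differences of 0.72 to 1.14 and 20E baseline differences of 0.47 to 0.91 on the log2 scale. phtm is named for phantom, a cytochrome P450 that makes ecdysteroids in the moulting gland of Drosophila. It was barely expressed in the JH3 baseline, at 0.335, 0.772, 0.996 and 0.854 FPKM, and stood at 2.78, 2.78, 2.29 and 3.5 FPKM after 24 h of 20E. In chronic 20E its libraries were all below that level, at 0.787, 1.26, 2.06, 1.72 and 1.7 FPKM, and the lowest of them overlapped the JH3 baseline. Levels this low make the log2(FPKM + 1) scale understate the ratio, which between the means was 3.84 at 24 h and 2.04 in chronic 20E. FASN1, fatty acid synthase, was at 63.9 ± 16.7 FPKM (SD, n = 4) in the JH3 baseline, 106 ± 14.3 (n = 4) at 24 h and 99.97 ± 20.6 (n = 5) in the 20E baseline. Sulfateless, sfl, which sulfates heparan sulfate chains, had means of 32.9 ± 15.2, 64 ± 13.4 and 58.3 ± 18.1 FPKM. The JH3 baseline libraries of sfl were 20.2, 43.6, 19.5 and 48.3 FPKM, so they split into a low and a high pair. The metalloproteases Meltrin, an ADAM family sheddase, and Invadolysin were at 28.3 ± 7.45 and 15 ± 1.45 FPKM in the JH3 baseline. At 24 h Meltrin was at 51.6 ± 8.37 FPKM and in the 20E baseline at 39.6 ± 6.49. Invadolysin was at 31.1 ± 2.18 and 29.1 ± 8.06 FPKM.

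The receptors mthl1 and nAChRalpha4 completed the named members. mthl1 encodes a G protein-coupled receptor of the Methuselah family. It stood at 4.88, 7.23, 3.56 and 9.29 FPKM in the JH3 baseline and at 8.25, 10.7, 4.94, 4.93 and 16.7 after 30 min of 20E, where replicate 5 was just below the lowest 24 h library. The 24 h libraries were at 22, 20.5, 16.9 and 23.9 FPKM and the 20E baseline libraries at 25.5, 27.7, 9.55, 35.6 and 23.6, 3.34 and 3.91 times the JH3 baseline by their means. After JH3 it was at 18.9, 8.83 and 11.8 FPKM at 30 min, 17, 19.4, 11, 27.2 and 5.3 at 6 h and 36.8, 32 and 16.2 at 24 h, so the 6 h libraries ran from below the JH3 baseline mean to above the 20E baseline mean. nAChRalpha4 encodes a subunit of the nicotinic acetylcholine receptor, the main excitatory receptor of the insect brain. Its JH3 baseline was at 5.97, 6.36, 4.32 and 5 FPKM, its 24 h libraries at 10.7, 10.04, 9.26 and 10.4 and its 20E baseline at 11.9, 10.7, 7.58, 18.2 and 10.6. It is the member whose level at 30 min of JH3 was nearest to the JH3 baseline, at 4.44% of the 20E baseline difference.

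The other 30 members are known by number only, 2 of them long noncoding RNAs (LOC112589172 and LOC112590561). Their 24 h differences were 0.70 to 1.45 on the log2 scale with a median of 0.85, and their 20E baseline differences 0.41 to 2.02 with a median of 0.81. LOC105185628 and LOC105185347 had the largest 24 h differences after sli and mthl1. LOC105185628 was at 2.4, 3.16, 1.88 and 2.44 FPKM in the JH3 baseline, 7.22, 9.94, 7.4 and 9.32 after 24 h of 20E and 8.99, 7.84, 3.7, 7.81 and 6.45 in the 20E baseline. LOC105185347 was at 6.1, 13.7, 6.76 and 6.02, 21.5, 22.5, 18.2 and 30.3 and 14.6, 19.6, 14.9, 24.2 and 21.8 FPKM in the same groups. In both, the 24 h libraries stood apart from the JH3 baseline and the 20E baseline libraries reached lower. LOC105191890 was at 23.6 ± 2.89 FPKM (SD, n = 4) in the JH3 baseline, 52.4 ± 11.8 (n = 4) after 24 h of 20E and 54.3 ± 17.9 (n = 5) in the 20E baseline. The most abundant members were LOC105184153, at 1353 ± 88.5 FPKM (SD, n = 4) in the JH3 baseline and 2264 ± 116 (n = 4) at 24 h, and LOC105186322, at 1155 ± 173 and 1893 ± 107. Their 20E baselines were uneven, with libraries of LOC105184153 at 1261, 1914, 2774, 929 and 2463 FPKM and of LOC105186322 at 1322, 1955, 2276, 901 and 2045, and replicate 4 was below the JH3 baseline in both. LOC105181883, the sixth by its 20E baseline level, was at 51.5 ± 16.5 FPKM (SD, n = 4) in the JH3 baseline, 92.3 ± 12.2 (n = 4) at 24 h and 96.6 ± 21 (n = 5) in the 20E baseline. At the other end LOC112589857 and LOC112589987 had 20E baseline means of 0.791 and 0.666 FPKM, below 1, with overlapping libraries in every comparison with 20E cultures.

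A day of 20E and days of 20E gave levels of like size for most members, with a few far apart. Both levels helped to choose the members, and 33 genes that met the conditions on JH3 cultures were left out for a low 20E baseline. The likeness is thus a description of the chosen genes. The 20E baseline difference was a median 92.2% of the 24 h difference, above 100% in 20 members and below 50% in 2. The difference between both groups had a median of 0.07 on the log2 scale, with a range from -1.0 to 0.76. The 24 h group was higher in 30 members and lower in 20, and higher in 47.0% of all genes tested. On the side of the day-long exposure were sli (0.76), LOC105188211 (0.65) and phtm (0.62). LOC105188211 was at 20.3 ± 6.66 FPKM (SD, n = 4) in the JH3 baseline, 44.3 ± 3.82 (n = 4) at 24 h and 27.8 ± 7.08 (n = 5) in the 20E baseline, and its 20E share of 39.8% was the lowest. On the side of chronic 20E were LOC112589629 (-1.0) and LOC105183755 (-1.0), followed by LOC105189000 (-0.62), LOC105188272 (-0.54) and LOC105182029 (-0.52).

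LOC105183755 went from 3.08, 2.64, 2.1 and 1.03 FPKM in the JH3 baseline to 5.68, 4.57, 4.93 and 5.07 after 24 h of 20E, and was at 13.4, 11.7, 6.71, 14.4 and 9.35 in the 20E baseline, all 5 of which lay above the 24 h libraries. LOC112589629 showed the same order at 4.77, 4.15, 3.54 and 1.54, 9.32, 7.05, 7.99 and 8.23 and 20.7, 17.6, 11.2, 21.6 and 15.2 FPKM. These 2 genes are neighbours with overlapping spans in RefSeq, and their FPKM ratio stayed between 1.5 and 1.78 in all 35 libraries, so reads may have been assigned between them and they are not independent members. LOC105182029 stood at 5.4, 10.2, 6.26 and 12 FPKM in the JH3 baseline, 15.3, 21.9, 16.1 and 27.5 after 24 h and 25.4, 26.8, 27.9, 30.5 and 36.3 in the 20E baseline. LOC105189000 was at 10.9 ± 2.76, 22.6 ± 2.53 and 35.4 ± 9.4 FPKM. LOC105188272 was at 10.6 ± 2.5, 19.8 ± 2.72 and 29.3 ± 6.14 FPKM. In all of these genes the order of the means was JH3 baseline, 24 h of 20E, then chronic 20E.

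**Figure D4:**
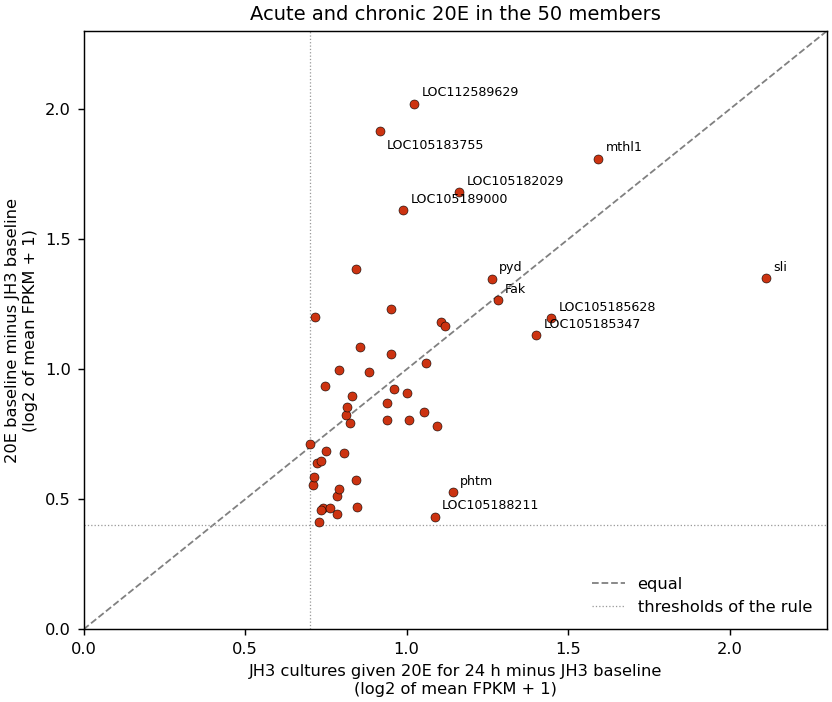
Difference from the JH3 baseline of each of the 50 members after 24 h of 20E (x) and in the 20E baseline (y), both as log2 of mean FPKM + 1; the dashed line marks equal values and dotted lines the thresholds that chose the members. Most points follow the dashed line, with 20 above it, and sli lies farthest to the right at 2.11 and 1.35.

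In 20E cultures given JH3 for up to 24 h the list stood near its level in the 20E baseline, as a description. Relative to the JH3 baseline the median member was at 0.77 on the log2 scale after 30 min of JH3 (range 0.04 to 1.26), at 0.70 after 6 h (0.14 to 1.72) and at 0.81 after 24 h (0.21 to 2.02), with medians over all genes tested of 0.01, 0.01 and -0.01. Without the 6 libraries these medians were 0.84, 0.81 and 0.83. With run as a term, which at 24 h rests on the runs of the other groups, they were 0.72, 0.65 and 0.69. Every one of the 50 members had a group mean above the JH3 baseline at all 3 times, beside 51.2%, 51.1% and 48.9% of all genes tested. The choice of members with a 20E baseline above the JH3 baseline favours this, so nothing is read from it. Against the 20E baseline, whose libraries helped to choose the members, the medians were -0.17 at 30 min, with 15 members higher and 35 lower, -0.16 at 6 h (11 higher, 39 lower) and -0.06 at 24 h (21 higher, 29 lower). Of all genes tested 49.7%, 48.1% and 51.1% were higher. A choice by a high 20E baseline favours lower values elsewhere, so nothing is read from these counts. The median member kept 79.7%, 82.5% and 92.1% of its 20E baseline difference at these times. The lowest share at 24 h, 46.4%, was that of LOC109504154, at 11.3 ± 4.48 FPKM (SD, n = 5) in the 20E baseline and 8.12 ± 3.82 (n = 3) after 24 h of JH3. The overlapping pair also stood lower at 24 h: LOC105183755 was at 3.58, 6.72 and 5.66 FPKM against a 20E baseline of 6.71 to 14.4. The choice of members bounded the upper side of the 24 h change and not the lower.

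The libraries of 20E cultures given JH3 for 30 min and 6 h entered the choice only through the filter on FPKM. The JH3 cultures they are set against were used in the other conditions too. All 3 libraries at 30 min of JH3 lay above all 5 of JH3 cultures given 20E for 30 min in 23 of 50 members, where 10.3% of all genes tested did so, and above all JH3 baseline libraries in 21 (7.06% of all genes). At 6 h all 5 libraries were above the JH3 baseline in 24 members (6.12%) and above 30 min of 20E in 20 (7.8%). The conditions asked for a 20E baseline above the JH3 baseline, and for JH3 libraries below the 24 h ones. Both favour such counts, so nothing is read from their excess over all genes. For the groups used in the choice, the 20E baseline was above the JH3 baseline without overlap in 27 members (4.93% of all genes) and the 24 h libraries of JH3 in 36 (12.1%), from which nothing is read. Without the 6 libraries the counts at 30 min were 24 and 29, those at 6 h were 36 and 31, and the 20E baseline stood clear in 44. Shares of all genes then were 13.3%, 13.1%, 13.4%, 12.4% and 18.2% in that order. Among the guidance genes, the receptors and shep, the genes sli, Sema1a, CRMP and shep were clear of the JH3 groups both at 30 min and at 6 h of JH3, and pyd, Fak and mthl1 at neither.

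The time between 30 min and 6 h of JH3 in 20E cultures is the one comparison whose libraries entered the choice only through the filter on FPKM. It asks whether the members moved within hours after medium with the opposite hormone was added, and it has no 6 h solvent control. limma, fitted to log2(FPKM + 1) with group and run over all libraries, called 0 of 50 members at a Benjamini-Hochberg adjusted p under 0.05 in either direction. Over all 9873 genes tested it called 9, or 0.0912%, all higher at 6 h and 0% lower; voom on recovered reads called 12 genes and 0 members. At an unadjusted p under 0.05 there were 5 members (10%), all higher at 6 h, beside 644 genes (6.52%). The median fold change of the members was -0.04 on the log2 scale against 0.00 for all genes, with a range from -0.52 to 0.94 and 22 members above 0. The median SE was 0.23, and the 95% interval of 43 members lay within a change of 1 in either direction. Its lower end was above -1 in 48 members and above -0.5 in 25. At 30 min of JH3 the median member stood 0.77 above the JH3 baseline, which is less than a fall of 1. Intervals that leave out a fall of 1 thus do not show that the members kept their level. The smallest adjusted p among members was 0.33.

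The members with an unadjusted p under 0.05 were LOC105183755, LOC112589629, nAChRalpha4, LOC105182029 and Nop17l. nAChRalpha4 was at 8.35, 6.19 and 2.29 FPKM at 30 min of JH3 and at 8.25, 9.98, 10.1, 13.1 and 7.21 at 6 h. Its log2 fold change by limma was 0.79 (SE 0.25, 95% interval 0.27 to 1.31, adjusted p = 0.386), and the exact two-sided permutation test of 5 against 3 libraries gave p = 0.0536, where 0.0179 is the smallest possible. LOC105183755 was at 8.29, 3.89 and 1.98 FPKM at 30 min and 9.18, 7.52, 8.73, 8.3 and 9.75 at 6 h, a limma fold change of 0.92 (SE 0.28, 95% interval 0.35 to 1.48, adjusted p = 0.33) and an exact permutation p of 0.0357. Its overlapping neighbour LOC112589629 was at 12.7, 6.53 and 3.53 and 14.7, 11.4, 14.2, 12.7 and 16.3 FPKM, with 0.94 (SE 0.29, 95% interval 0.35 to 1.53, adjusted p = 0.346) by limma. In these 3 genes and in LOC105182029, at 25.9, 22.6 and 8.24 FPKM at 30 min and 20.9, 29.9, 25.2, 32.5 and 35.4 at 6 h, replicate 3 of 30 min was the lowest library. LOC105182029 had a limma fold change of 0.69 (SE 0.28, 95% interval 0.12 to 1.25, adjusted p = 0.603) and Nop17l of 0.25 (SE 0.11, 95% interval 0.03 to 0.47, adjusted p = 0.652), with exact permutation p of 0.107 and 0.0536. That replicate had the highest summed FPKM of the 7 glial markers, 119 against 40.7 to 67.3 in the other 7 libraries compared, and repo at 50.02 FPKM; its part in these differences was not tested.

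Single 30 min libraries decided these values. Without replicate 1 of 30 min limma called 148 genes and 3 members, nAChRalpha4 at 1.16 (adjusted p = 0.0235), LOC105183755 at 1.42 (0.0043) and LOC112589629 at 1.44 (0.0064), with LOC105182029 at 1.05 and not called. Without replicate 3 the same genes were at 0.24, 0.44, 0.46 and 0.06 in that order, and limma called no member. Within run A, with 2 libraries against 1, the 4 genes were at -0.05 to 0.11. Within run C replicate 3 is the lone 30 min library, set against 3 at 6 h, and they were at 1.72 to 1.78. Each within-run value rests on a single 30 min library, with the spread taken from the other groups of that run, so no call is read from it.

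**Figure D5:**
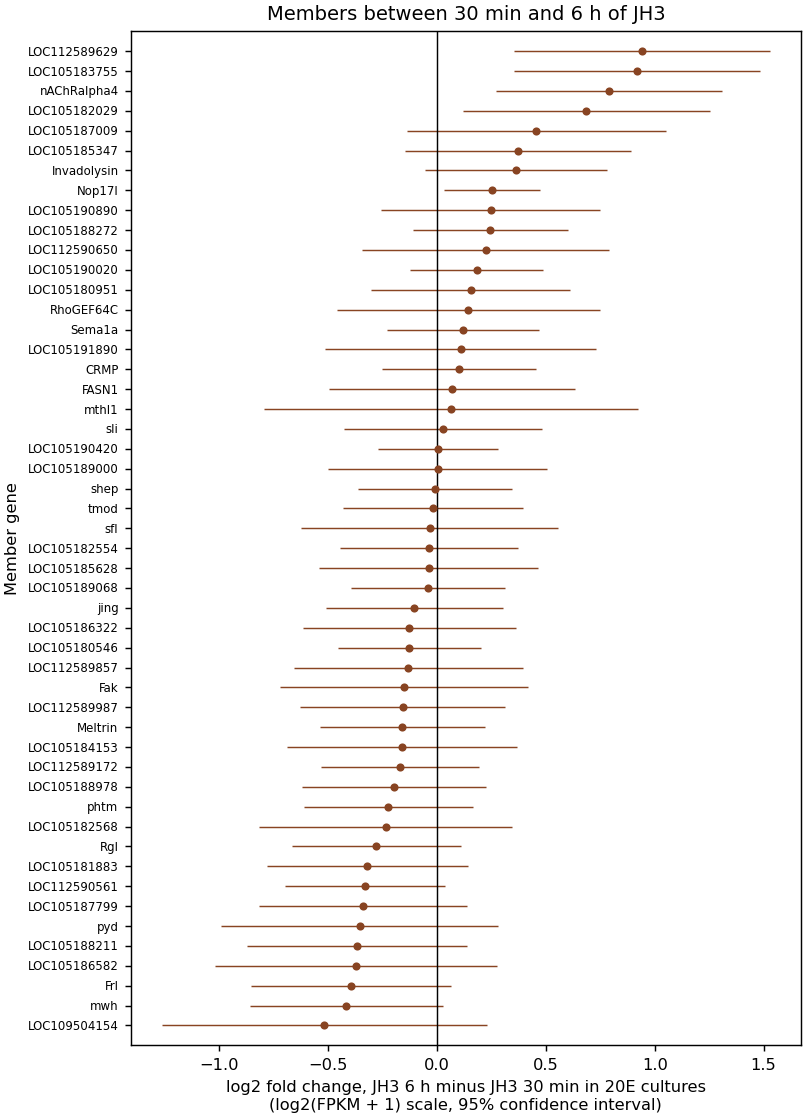
limma log2 fold change of each member between 6 h and 30 min of JH3 in 20E cultures (points, log2(FPKM + 1) scale) with its 95% confidence interval (lines), ordered by size. The 4 genes at the top lie at 0.69 to 0.94, and most intervals cross 0.

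The members were long genes. The length over which a gene was counted, as recovered from the steps of its FPKM values, had a median of 8090 bases in the members and 4224 in all genes tested. It was above the overall median in 36 of 50 members, and 29 lay in the top 25% of all genes by length. Long genes as a whole moved the same way by little: over the 2468 genes of the top 25% by length the median difference from the JH3 baseline was 0.13 at 24 h of 20E and 0.13 in the 20E baseline, and over the bottom 25% -0.14 and -0.03. Members outside the top 25% by length had medians of 0.84 and 0.71, and those inside it 0.95 and 0.92. The conditions asked for high values in both of these groups from every member, whatever its length. High medians in both length classes were thus fixed by the choice, and nothing about a part of length is read from them. The trend of expression with length differed between libraries and moved with the members' level: 20E baseline replicate 3, with the lowest member mean of its group (3.98), had a slope of -0.14 on the log2 scale per doubling of length, and replicate 4, with the highest (4.61), one of 0.13. Its part in the members' differences was not tested. Fitted as a covariate, it left 0 members called between 30 min and 6 h of JH3, with 67 genes called in all. Long noncoding RNAs made up 4% of members and 5.11% of genes tested, and 40% of members and 39.5% of genes tested had a symbol.

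Across the 35 libraries the members, chosen by a shared profile, followed each other. Pearson's r of log2(FPKM + 1) had a median of 0.64 over 1225 pairs and was negative in 7, the points sharing library, run and group. The closest pairs were the overlapping LOC105183755 and LOC112589629 (0.998), then LOC112589857 and LOC112589987 (0.994), and the neighbouring genes LOC105186582 and LOC109504154 (0.974). Read assignment between near or similar genes was not checked for these, so these 6 may not be independent members. Nor was it checked for LOC105184153 with LOC105186322 (0.939) or for LOC112590650, which lies next to sfl. CRMP with LOC105189000 (0.952) and shep with Sema1a (0.928) were the closest pairs with a named guidance gene.

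Of 34 genes listed for the response to ecdysone and juvenile hormone, 23 were matched by symbol and 21 had enough signal to test, none of them a member. Eip93F, a late ecdysone transcription factor gene on the list, met every condition and was left out by name only. It was at 24.3 ± 6.36 FPKM (SD, n = 4) in the JH3 baseline, 29.3 ± 8.38 (n = 6) after 6 h of 20E, 58.8 ± 14.9 (n = 4) after 24 h and 78.2 ± 35.2 (n = 5) in the 20E baseline. Between 30 min and 6 h of JH3 in 20E cultures limma called 1 of the 21 higher, Kr-h1, and 0 lower, with 2.67 on the log2 scale (SE 0.43, adjusted p = 0.00355). Only 0.0912% of all genes tested were called, so nothing is read from the lack of calls among the members. E75, the early ecdysone nuclear receptor, was at 45 ± 11.8 FPKM (SD, n = 4) in the JH3 baseline, 488 ± 69.7 (n = 6) after 6 h of 20E and 517 ± 96 (n = 4) after 24 h, but at 79.1 ± 13.6 (n = 5) in the 20E baseline. Its level was thus already high at 6 h, when the members were low by choice, and both were high at 24 h. In chronic 20E E75 was far below its 24 h level, but still 0.80 above the JH3 baseline on the log2(mean FPKM + 1) scale. Ecr was at 8.61 ± 1.83, 8.6 ± 1.02, 5.8 ± 0.502 and 6.17 ± 1.75 FPKM in the same 4 groups. usp was at 47.7 ± 11, 53 ± 10.7, 19.6 ± 4.99 and 9.08 ± 3.49 FPKM, so it was lower in the 2 groups in which the members were high. Of the ecdysone-induced genes on the list E23, an ABC transporter gene also left out by name, had means of 5.05, 9.17, 72.6 and 44 FPKM and Hr4, a nuclear receptor gene, of 5.3, 17.3, 51.8 and 81.2 FPKM. Others on the list rose at 24 h but were low in chronic 20E. Eip74EF had means of 16.9, 32.4, 51.2 and 18.1 FPKM, Hr39 of 5.33, 10.8, 15.9 and 6.72 and Cyp18a1 of 0.243, 1.84, 1.96 and 0.147.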

How the data were processed

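The authors deposited one table of FPKM values for 14001 genes in 35 libraries. Per the submitters' processing notes the tools were bcl2fastq, STAR, featureCounts and DESeq2. For versions and the genome build the sources used here give nothing, and coordinates are left out. A gene's deposited FPKM values turned out to be multiples of what 1 read is worth, and whole reads were recovered for 13163 genes (largest distance from a whole number 4.96e-05, tolerance 0.002), including all 9873 genes tested (FPKM of 1 or more in 3 or more libraries). The worth of a read varied as median-ratio size factors do (spread 0.238%). These reads served for depth, counted length and a voom alternative; intervals come from the spread between cultures.

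Groups and replicate numbers came from sample titles and runs from the descriptions. Gene names came from RefSeq (assembly Hsal_v8.6; 13989 identifiers matched, 4117 with a symbol). Tests used limma 3.58.1 (R 4.3.3) on log2(FPKM + 1) with terms for group and run, all libraries entering the fit, and with its trend and robust options. p-values were two-sided, adjusted by Benjamini-Hochberg over 9873 genes and called under 0.05; the scale understates the change of low genes. In a simulation of this comparison over 9640 genes, 61% of 100 genes given a log2 change of 1 were called. Of 100 given one of 2, 100% were called, and 5.29% of all calls fell on unchanged genes. The simulation used the same setting for the spread of every gene, without run effects or libraries that stand apart. It changed only better expressed genes, so these rates may not hold for the real libraries. Differences that chose the members got no test.

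The members and lists were chosen with earlier results of these data known. Named were the 12 members with the largest 24 h difference, the 8 with the largest 20E baseline difference, the 6 most abundant in the 20E baseline and those nearest each threshold, except 1 member among the actin and small GTPase genes, which is not reported here. The other members with a symbol, those with an unadjusted p under 0.05 and those at the extremes of a share or correlation were named after their values were seen. Protein classes, promoters and sequences were not used here. No pair of replicates looked like a repeat deposit (chi-square per gene 7.17 to 177 over 63 pairs).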

Additional observations from a re-analysis of the deposited data

Results flagged for a closer look

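In 180 groups of 4 or more libraries over 30 items (29 members and the mean over all members), 6 held a library far from the rest of its group by Dixon's test, which chance does for about 1 group in 20. Sema1a was at 191.9 FPKM in 20E baseline replicate 4 and at 95.1 to 119 in the other libraries of that group. The 24 h value of shep was 121.7 FPKM in replicate 2 and 106 to 108 in the others. Of the 6, 3 were found in 1 library, the JH3 culture of replicate 5 after 30 min of 20E, which also had the fewest reads: phtm was at 0.203 FPKM there against 0.898 to 1.17, LOC105184153 at 713 against 1228 to 1434, and LOC105186322 at 532 against 1091 to 1238. In JH3 baseline replicate 2 LOC105185347 was at 13.7 FPKM, the others being at 6.02 to 6.76.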

How the results depend on the processing

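Between 30 min and 6 h of JH3 in 20E cultures limma called 9 genes and 0 members. The count of genes was 0 with only the compared groups fitted, 67 with the length trend as a covariate, 1 within run A and 117 within run C, each with a single library at 30 min; leaving out each library in turn gave 6 to 148, the latter without 20E to JH3 30 min replicate 1. Members called were 4 within run C and 0 to 3 with each library left out, the 3 again without that replicate 1. LOC105182029 turned to -0.049 within run A. Without 30 min replicate 3 it fell from 0.69 to 0.06, nAChRalpha4 from 0.79 to 0.24, LOC105183755 from 0.92 to 0.44 and LOC112589629 from 0.94 to 0.46. The cause was not tested. In the other settings both counts stayed within 1.5 times of their values or at 0, and the members' median fold change ranged from -0.09 to 0.06 over all 23 settings. With the replicate number as a block 7 genes and 0 members were called. The numbers do not pair the libraries: deviations of same-numbered libraries correlated at 0.46, -0.42 and -0.18, and replicate 1 alone correlated best with its own number.

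The number of genes meeting the conditions, 50, was 33 without JH3 to 20E 6 h replicate 4 and ranged from 33 to 66 with each library left out. A pseudocount of 0.1 gave 46 genes, 36 of them members, and moved the median 24 h difference from 0.87 to 1.01. Median-ratio rescaling gave 51. The median at 30 min of JH3 moved from 0.77 to 0.61 without 20E to JH3 30 min replicate 1. The group with 3 libraries at 30 min of JH3, all apart from each other, limits every value that rests on it.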
